A study of Mus musculus with 11 samples.

Results

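Reln, Aqp4, Gch1, Sbk3, Cntfr, Lrrc38 and Wnt5b are 7 genes whose RNA stood far lower in soleus muscle of mice with an inducible Myc system than in soleus of control mice. They were picked by name for that difference, out of 13121 genes listed for soleus and 12366 for quadriceps, and all 7 are listed in both muscles. Because the soleus difference chose them, it is described below without a test. The quadriceps values took no part in the choice and were tested. Genes that work with each member were tested too, but their lists were drawn up with earlier results of these data known.

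The series sequenced RNA from 11 libraries of 2 mouse hindlimb muscles, with 4 Myc-labelled and 3 control libraries of soleus and 2 Myc-labelled and 2 control libraries of quadriceps. All mice were 2.5 months old. The Myc-labelled mice carried a tetracycline system that switches on Myc under doxycycline, were given the drug overnight, and were sampled 12 hours after it was withdrawn. Controls were mice of the same age. The labels used here give neither the genotype or strain of the controls, nor whether they received doxycycline, nor the promoter that drives the system, so the drug and the transgene cannot be told apart. The study set this Myc response beside exercise in late life, which is not analysed here. Levels are normalised read counts, the authors' read counts divided by a scaling factor per library, and differences are log2 of (value + 1), Myc-labelled minus control. Values after ± are SD over libraries.

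Myc is a transcription factor that pairs with Max on short DNA sites called E-boxes, and it raises genes of growth and ribosome making while others are lowered. Soleus is a postural muscle of slow and oxidative fibres, and quadriceps is mostly fast. The 7 genes belong to different systems. Reln and Wnt5b encode secreted proteins, Cntfr a receptor for a neurotrophic cytokine, Aqp4 and Lrrc38 a water channel and a subunit of a potassium channel, and Gch1 and Sbk3 enzymes. Reelin is best known for placing neurons in layers, Wnt proteins for patterning tissues, and aquaporin-4 in muscle for water flow across the membrane of fast fibres.

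RefSeq promoter windows of build GRCm38.p6, which run from 250 bases before to 50 bases after an annotated start, were scanned for 6 of the 7 genes. These had 13 windows in all. Aqp4 was left out of the scan, so nothing is said of its promoter. Each window was searched on both strands for the Myc E-box CACGTG, the myogenic-factor E-box CAGCTG, the GC box GGGCGG and the TATA box TATAAA, and 3 windows are shown because they hold the Myc E-box, a myogenic E-box alone, and none of the 4 motifs. They are the windows of Reln (chr5:22344656-22344955, minus strand), Sbk3 (chr7:4970912-4971211, minus strand) and Lrrc38 (chr4:143349500-143349799, plus strand), written 5′ to 3′ along the gene, with the matched motifs in capitals.
Reln: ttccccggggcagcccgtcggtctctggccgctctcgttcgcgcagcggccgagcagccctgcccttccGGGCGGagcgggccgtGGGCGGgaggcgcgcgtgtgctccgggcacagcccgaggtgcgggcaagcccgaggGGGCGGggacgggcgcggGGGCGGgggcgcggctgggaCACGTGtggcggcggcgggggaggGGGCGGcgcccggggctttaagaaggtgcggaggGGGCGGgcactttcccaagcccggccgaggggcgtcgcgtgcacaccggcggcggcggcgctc
Sbk3: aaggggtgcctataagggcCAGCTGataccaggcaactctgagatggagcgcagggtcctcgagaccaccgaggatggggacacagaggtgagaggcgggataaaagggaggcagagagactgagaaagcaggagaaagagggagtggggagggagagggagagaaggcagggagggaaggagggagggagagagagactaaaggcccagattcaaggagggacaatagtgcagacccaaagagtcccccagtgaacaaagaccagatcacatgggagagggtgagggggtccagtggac
Lrrc38: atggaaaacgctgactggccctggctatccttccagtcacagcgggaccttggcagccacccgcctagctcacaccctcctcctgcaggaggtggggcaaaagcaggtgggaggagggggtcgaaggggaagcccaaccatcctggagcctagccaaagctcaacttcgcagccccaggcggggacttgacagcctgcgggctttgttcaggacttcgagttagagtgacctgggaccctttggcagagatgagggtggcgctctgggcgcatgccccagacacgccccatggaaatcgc
The Reln window held 1 CACGTG, its first base at position -71 from the start, and 6 GC boxes, and it was 80.7% G or C. The Sbk3 window held 1 CAGCTG at position -231, in 58.0% G or C. In these windows no matches overlapped. Of all 32851 windows of this length, 7.15% held CACGTG, 16.3% CAGCTG, 35.7% GGGCGG and 13.6% TATAAA. No other window of the scanned genes held CACGTG. The Gch1 window held 2 GC boxes and 1 match to TATAAA, on the opposite strand at position -188. Of the 6 windows of Cntfr, windows 1, 4 and 5 were CpG-rich, with 45, 47 and 45 CpG pairs, and the others had 3 to 26. The first of the 3 windows of Wnt5b had 47, and the others had 4 and 7. The Sbk3 window had 4 CpG pairs and the Lrrc38 window 12. No motif of the 4 searched was in the windows of all 6 genes, and their promoters range from CpG-rich to CpG-poor. A match is a run of letters and does not show that a factor binds there.

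The libraries were checked first. Estimated depth was 11.09 to 14.85 M reads in soleus and 14.21 to 18.38 M reads in quadriceps. The Myc row averaged 28.4 ± 1.98 in Myc-labelled soleus (n = 4), against 37.5 ± 14.6 in control soleus (n = 3), a log2 change of -0.33 (limma, adjusted p = 0.69), and in quadriceps the adjusted p was 0.93. The Myc row thus does not tell the groups apart, and all directions given here rest on the labels. All 10 slow-fibre markers were present in soleus, with summed levels of 504700 to 645100 in Myc-labelled libraries and 534700 to 622200 in controls. In quadriceps the same markers summed to 1986 and 3525 in the Myc-labelled libraries, against 26330 and 191000 in controls 1 and 2. The summed levels thus did not overlap between the quadriceps groups. Of single quadriceps genes tested, 16.9% had both Myc-labelled libraries below both controls. None of the 10 markers was called in quadriceps (limma, adjusted p = 0.60 to 0.93), and Casq2 and Myh7b overlapped between the groups. All 13 fast-fibre markers were present in both muscles. In bulk tissue, fewer cells of a type and less RNA per cell cannot be told apart.

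In control soleus the members were low to moderate, with means of 101 to 234 normalised reads, and in the Myc-labelled libraries their means were 43.5 to 96.9. Every Myc-labelled library was below every control for all 7, a pattern that 8.35% of the 12745 soleus genes tested had; this contrast chose the members, so nothing is read from that count. A ranking by log2 change took the 255 genes that limma called lower in soleus and whose groups did not overlap. They also averaged at least 5 CPM, the normalised reads rescaled to 1 M per library, and genes with Gm or Rik symbols were left out. In it the members held places 2 to 6, 8 and 9, as description only, since the same contrast chose them. Cish (-1.46) did not overlap either but was not called (limma, adjusted p = 0.16), so it was not ranked. Mrln (-2.0), the gene of the micropeptide myoregulin that restrains the calcium pump of the sarcoplasmic reticulum, held place 1, and Igtp (-1.28), an interferon-induced GTPase gene, held place 7; neither is a member. The next ranked gene after the members was the stress-response gene Gadd45a (-1.17), beside -1.22 for Wnt5b, the member with the smallest change.

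**Figure D1:**
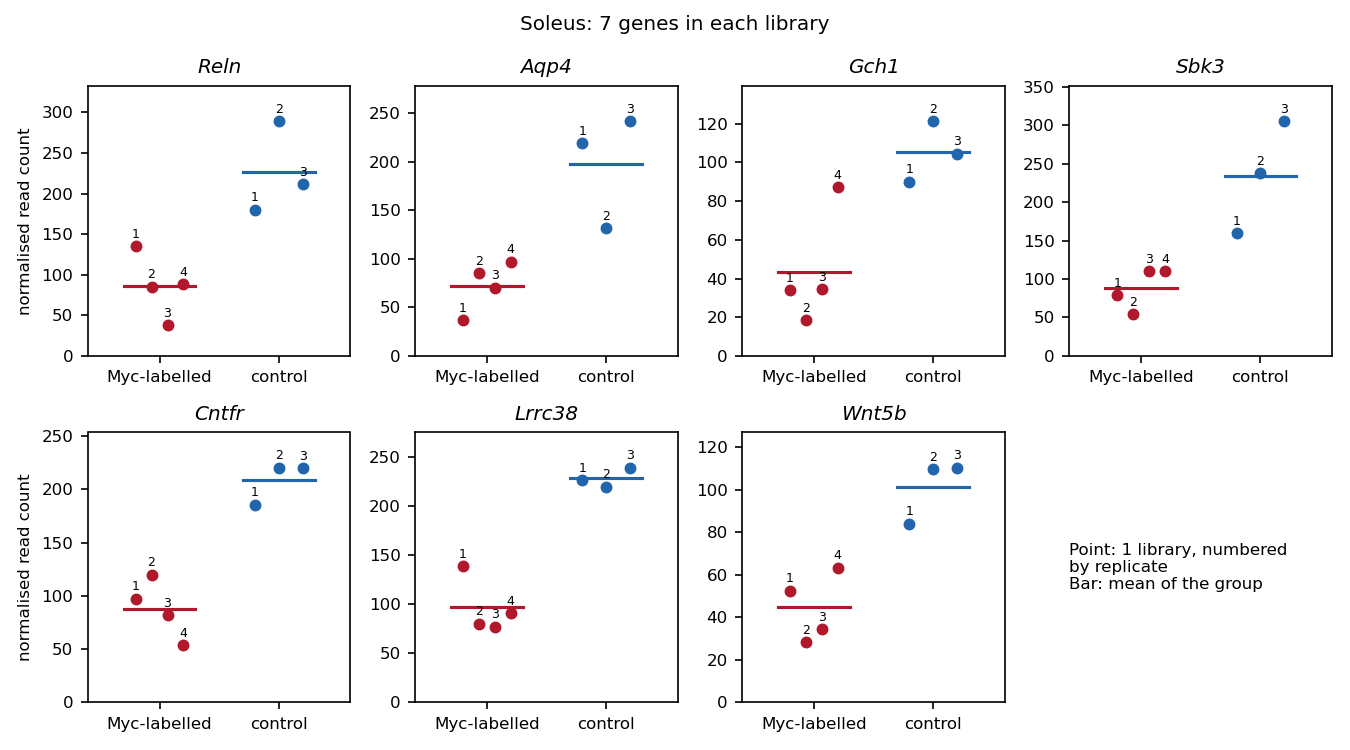
Normalised read count (vertical axis, linear, from 0) of the 7 genes in soleus, with Myc-labelled libraries on the left and controls on the right. Points are libraries, numbered by replicate, and bars are group means; the groups do not overlap in any panel, and the smallest gap is for Gch1, where Myc-labelled library 4 had 87.1 and control 1 had 90.1.

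Among the secreted proteins, Reln showed the largest log2 change of the 7. It had 135, 85.4, 38.0 and 88.1 normalised reads in Myc-labelled soleus libraries 1 to 4, against 180, 289 and 211 in controls 1 to 3. The group means were 86.7 ± 39.7 and 227 ± 56.1 (n = 4 and 3), 2.62-fold lower in Myc-labelled soleus, with a log2 change of -1.48. Library 3 was the lowest, at 16.7% of the control mean, and library 1 the highest, at 59.6%. In quadriceps Reln had 26.7 and 34.5 in the Myc-labelled libraries, against 36.0 and 39.9 in controls. The quadriceps groups did not overlap, but limma gave a log2 change of -0.31 (95% interval -1.35 to 0.73, adjusted p = 0.95). Lymphatic endothelium is a known source of reelin, and its 6 markers, none at 0, summed to 624 to 804 in Myc-labelled soleus and 721 to 771 in control soleus. The part of these cells in the Reln result was not tested.

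Wnt5b encodes a Wnt ligand that signals mostly without β-catenin. In soleus it had 52.6, 28.5, 34.5 and 63.3 normalised reads in the 4 Myc-labelled libraries, against 83.9, 110 and 110 in controls. Its means were 44.7 ± 16.1 and 101 ± 15.0, 2.26-fold lower in Myc-labelled soleus, with a log2 change of -1.22. Libraries 2 and 3 were the low ones, at 28.1% and 34.1% of the control mean. In quadriceps the gene was close to the detection limit in 1 library, with 1.03 and 22.7 in Myc-labelled libraries 1 and 2, against 10.4 and 56.5 in controls 1 and 2. These groups overlapped, and limma gave a log2 change of -1.89 (interval -5.30 to 1.52, adjusted p = 0.90). It was -0.11 without Myc-labelled library 1, -3.66 without Myc-labelled library 2, -3.05 without control 1 and -0.72 without control 2.

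Tendon and fibroblast cells also make secreted signals, and their markers varied between soleus libraries. The 7 tendon markers summed to 6799, 6061, 2006 and 3172 in Myc-labelled libraries 1 to 4, against 6711 to 8277 in controls, and the 8 fibroblast markers to 5808 to 13820, against 12170 to 15320. In soleus 6 of the 7 tendon markers had a log2 change below 0, as had all 8 fibroblast markers and 54.4% of all genes. The medians were -1.02 for tendon and -0.37 for fibroblast markers, against -0.03 for all genes. Limma called no tendon marker and 1 fibroblast marker, Ly6a, lower (log2 change -0.34, adjusted p = 0.046), where 2.23% of all soleus genes were called lower. Myc-labelled libraries 3 and 4 were the low ones for both lists, and no marker of either list was at 0. Without those 2 libraries the soleus log2 change of Reln was -1.04 and that of Wnt5b -1.35. The part of these cells in the results was not tested.

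Cntfr encodes the receptor subunit that binds ciliary neurotrophic factor and hands the signal to the gp130 and LIF receptor chains. It had 97.4, 120, 81.8 and 53.4 normalised reads in the Myc-labelled soleus libraries, against 186, 220 and 220 in controls. The means were 88.1 ± 27.8 and 208 ± 19.8, 2.37-fold lower in Myc-labelled soleus, a log2 change of -1.29. Here library 4 was the lowest, at 25.6% of the control mean, and without libraries 3 and 4 together the log2 change was -0.94. In quadriceps Cntfr had 330 and 643 in the Myc-labelled libraries, with 549 and 398 in controls between them. The quadriceps log2 change was -0.02 (limma, interval -0.93 to 0.89, adjusted p = 1.0), and it became 0.04 when libraries were scaled to the same total.

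The channel genes Aqp4 and Lrrc38 were both lower in Myc-labelled soleus, with different spreads. Aqp4, the water channel that the dystrophin complex anchors, had 37.0, 85.4, 70.2 and 97.0 in Myc-labelled libraries, against 219, 132 and 242 in controls. Its means of 72.4 ± 26.0 and 198 ± 58.0 gave a 2.73-fold lower level in Myc-labelled soleus and a log2 change of -1.47. Library 1 was lowest, at 18.7% of the control mean, and control 2 was the control nearest to the Myc-labelled libraries. In quadriceps Aqp4 had 577 and 459 in Myc-labelled libraries, against 767 and 528 in controls, which overlap (log2 change -0.31, interval -0.83 to 0.22, limma, adjusted p = 0.90).

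Aqp4 is known from fast fibres, so the fast-fibre markers are given beside it. Their summed level was 451700 to 717100 in Myc-labelled soleus and 686800 to 725100 in control soleus. All 13 had a log2 change below 0 in soleus, with a median of -0.35, against -0.03 for all genes, and 1, the myosin light chain gene Mylpf, was called lower (log2 change -0.47, limma, adjusted p = 0.010). Myh4, the myosin of the fastest fibres, varied far more between libraries of 1 group, with 318, 589, 17470 and 244 in Myc-labelled libraries, against 664, 26820 and 10300 in controls. Myc-labelled libraries 1 to 4 had summed fast-fibre levels of 451700, 602100, 717100 and 492800, and library 1 was the lowest for both that sum and Aqp4. Library 4, the next lowest for the sum, was the highest of the 4 for Aqp4. The part of fibre makeup in the Aqp4 result was not tested.

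Lrrc38, a γ subunit that lets the calcium-activated BK potassium channel open more easily, was the most even of the 7 among controls. It had 139, 80.4, 77.1 and 91.1 in Myc-labelled soleus, against 227, 220 and 240 in controls. The means were 96.9 ± 28.8 and 229 ± 9.77, 2.36-fold lower in Myc-labelled soleus, with a log2 change of -1.27. The highest control was 1.09 times the lowest, and the gap between the groups, 81.0 normalised reads, was the widest of the 7. In quadriceps, where Lrrc38 was more abundant, it had 660 and 670 in Myc-labelled libraries, against 798 and 596 in controls. The log2 change there was -0.05 (limma, interval -0.49 to 0.39, adjusted p = 0.98), which was 0.01 with libraries scaled to the same total.

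Gch1 encodes GTP cyclohydrolase 1, the first enzyme in making tetrahydrobiopterin, the cofactor of nitric oxide synthases and of the hydroxylases that make dopamine and serotonin. It was uneven among the Myc-labelled soleus libraries, with 34.1, 18.4, 34.5 and 87.1 normalised reads, against 90.1, 121 and 105 in controls. Its means were 43.5 ± 30 and 105 ± 15.6, 2.42-fold lower in Myc-labelled soleus, with a log2 change of -1.47. Library 4 held 82.7% of the control mean and came within 3.04 normalised reads of the lowest control, while libraries 1, 2 and 3 held 17.5% to 32.8%. Without library 4 the log2 change was -1.87, and without library 2 it was -1.14. In quadriceps the values were 33.9 and 38.5 in Myc-labelled libraries, against 51.1 and 47.4 in controls. These groups did not overlap, with a log2 change of -0.43 (limma, interval -1.35 to 0.48, adjusted p = 0.92).

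Sbk3 encodes an SH3-domain-binding serine/threonine kinase whose substrates are little known. In soleus it had 78.9, 54.4, 111 and 110 normalised reads in Myc-labelled libraries, against 160, 238 and 305 in controls. The means were 88.4 ± 27.1 and 234 ± 72.7, 2.65-fold lower in Myc-labelled soleus, a log2 change of -1.40. The summed slow-fibre markers varied 1.28-fold over the 7 soleus libraries, and the part of fibre makeup in the soleus result was not tested. In quadriceps Sbk3 was nearly absent from the Myc-labelled libraries, with 1.03 and 2.96, against 10.4 and 79.0 in controls 1 and 2. Its log2 change there was -3.42, with an interval of -6.36 to -0.47, an unadjusted p of 0.028 and an adjusted p of 0.71 over all 12270 genes (limma). Sbk3 passed the filter on low values through the controls alone, so it had to differ, and without either control it was no longer tested.

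The quadriceps level of Sbk3 followed the slow-fibre markers from library to library. Control 2, with 7.25 times the slow-fibre level of control 1, also had the highest Sbk3, and the libraries stood in the same order for both. Myh7, the slow myosin, had 174 and 156 in Myc-labelled quadriceps, against 9731 and 76140 in controls. Wnt5b was highest in control 2 as well, but its order among the other libraries differed. The Myc-labelled quadriceps libraries were therefore low in slow-fibre RNA and low in Sbk3 at once, and the part of fibre makeup in the quadriceps result was not tested.

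**Figure D2:**
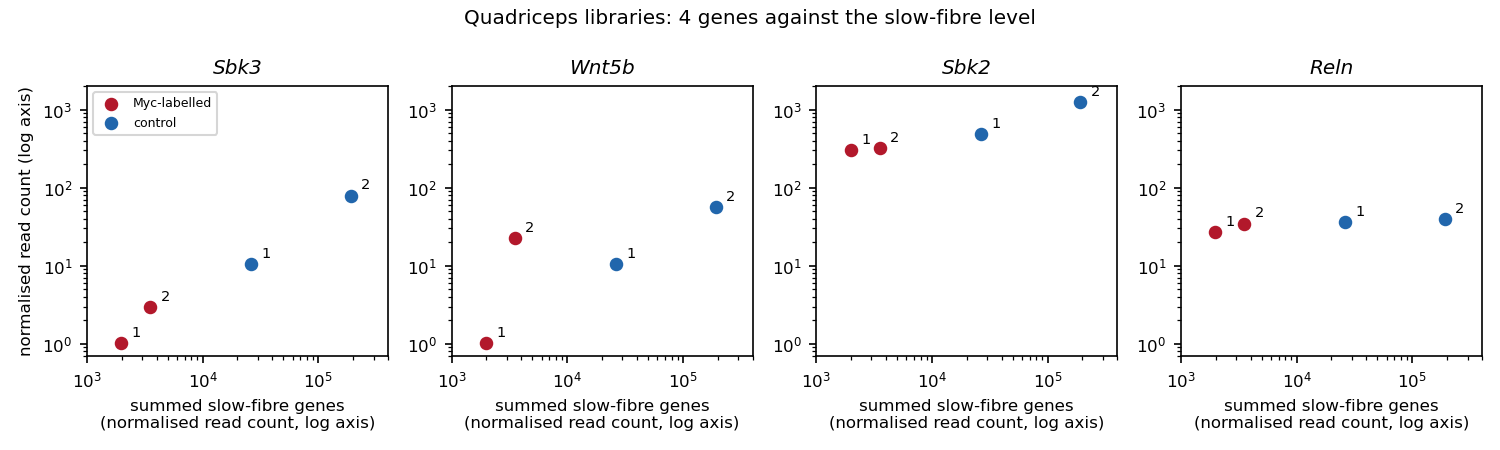
Normalised read counts of Sbk3, Wnt5b, Sbk2 and Reln (vertical axis, log) against the summed level of the 10 slow-fibre genes (horizontal axis, log) in the 4 quadriceps libraries, Myc-labelled in red and control in blue, numbered by replicate. Sbk3 lies between 1.03 and 79.0 and increases with the slow-fibre level; Reln stands in the same library order over a narrower range, 26.7 to 39.9.

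Taken over the 7 genes in quadriceps, the contrast that did not choose them, all 7 log2 changes were below 0, as were 54.2% of the 12270 genes tested. For Reln and Gch1, and for Sbk3, which had to differ to be tested, both Myc-labelled libraries were below both controls, as for 16.9% of all genes. No member was called by limma at an adjusted p under 0.05, where 0.00815% of all genes were, 1, again Sbk3, had an unadjusted p under 0.05, as had 6.21% of all genes, and limma-voom called 0, with 0 at an unadjusted p under 0.05. With 2 libraries a group the intervals of Sbk3 and Wnt5b span several log2 units. The lower ends of the other intervals were -1.35 for Reln and Gch1, -0.93 for Cntfr, -0.83 for Aqp4 and -0.49 for Lrrc38. The difference between muscles was not tested for the members, since the soleus values chose them.

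**Figure D3:**
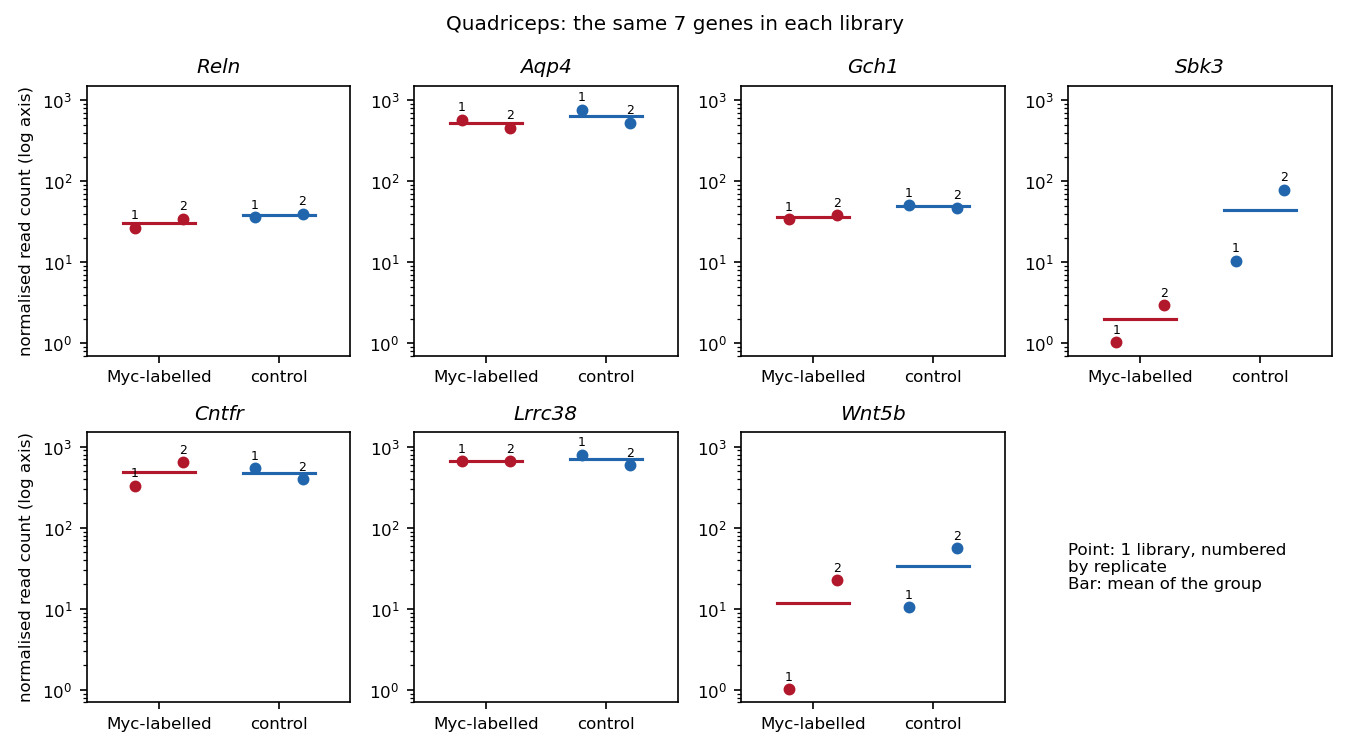
Normalised read count (vertical axis, log) of the same 7 genes in the 4 quadriceps libraries, Myc-labelled on the left and controls on the right, with points for libraries and bars for group means. Only Reln, Gch1 and Sbk3 have groups that do not overlap, and control 2 lies far above the other libraries for Sbk3.

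The members also differed in which muscle held more of them in controls. The 2 muscles were normalised in separate tables, so these levels stand side by side with no test. Reln averaged 227 in control soleus and 37.9 in control quadriceps, a 5.98-fold higher level in soleus, and Gch1 was 2.14-fold higher in soleus. Sbk3 averaged 234 in soleus, above quadriceps controls that lay far apart, at 10.4 and 79.0, and Wnt5b averaged 101 in soleus, above quadriceps controls at 10.4 and 56.5. Aqp4, at 647 in quadriceps and 198 in soleus, was instead 3.28-fold higher in quadriceps, as were Lrrc38 (3.05-fold) and Cntfr (2.27-fold). For none of the 7 did the control ranges of the muscles overlap. The genes low in Myc-labelled soleus were therefore neither all soleus-rich nor all quadriceps-rich.

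The Myc-labelled soleus library with the lowest value differed from member to member. Library 2 was the lowest for 3 members, library 3 for 2, and libraries 1 and 4 for 1 each, while library 4 was the highest for 3, library 1 for 2, and libraries 2 and 3 for 1 each. Of the marker lists, only the neuromuscular-junction list had summed levels that did not overlap between the soleus groups. They were 1512 to 2077 in Myc-labelled libraries and 2112 to 2395 in controls. Among single soleus genes tested, 8.35% had every Myc-labelled library below every control. All 7 genes of the neuromuscular-junction list were detected in every library and had a soleus log2 change below 0, and limma called none. The fast-fibre, blood-endothelium, fibroblast, macrophage, erythroid and adipocyte lists also had every soleus log2 change below 0. Of the neuromuscular-junction genes taken singly, only Ache did not overlap between the groups (limma, adjusted p = 0.059). The part of the neuromuscular-junction list in the members' values was not tested.

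Genes that work with the members were taken from lists of 169 genes, of which 122 were tested in soleus and 116 in quadriceps. In soleus 5 of the 122 fell (4.10%) and 2 rose (1.64%), where of all soleus genes 9.29% were called, 2.23% with a fall and 7.06% with a rise. Their median log2 change was -0.13, against -0.03 for all genes. In quadriceps limma called 0 of 116, where 0.00815% of all genes were called, and limma-voom also called 0. Of the 116, 10 had an unadjusted p under 0.05, against 6.21% of all genes, and the median was -0.22, against -0.03. In 1 limma fit over both muscles none of 112 partner genes was called for a difference between muscles, with 4 at an unadjusted p under 0.05. Even Sgcd, the lowest of these (unadjusted p = 0.0087), had an adjusted p of 0.999 in that limma fit. The share over all 11971 genes of that fit was not taken, so nothing is read from this count.

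**Figure D4:**
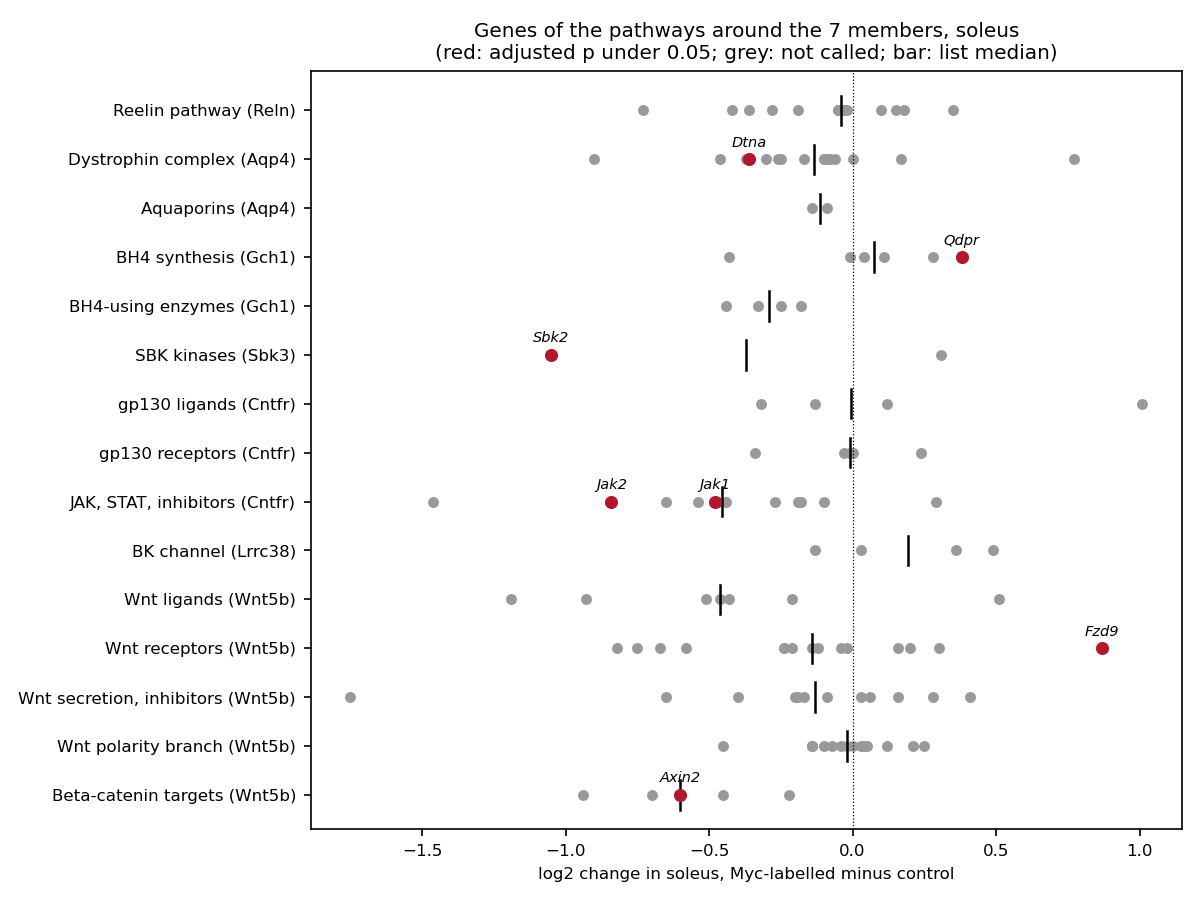
Log2 change in soleus, Myc-labelled minus control (horizontal axis), of the tested genes in each partner list (rows, with the member in brackets); red points are called by limma at an adjusted p under 0.05, grey points are not, and black bars are list medians. The 5 called falls lie in the dystrophin, SBK, JAK-STAT and β-catenin-target lists, and the 2 called rises, Qdpr and Fzd9, in the tetrahydrobiopterin and Wnt-receptor lists.

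Around Cntfr, the signalling kinases Jak1 and Jak2 fell in soleus, and no receptor partner was called. Jak2, a kinase bound to cytokine receptors, had 329, 475, 471 and 332 normalised reads in Myc-labelled soleus, against 650, 760 and 724 in controls, a log2 change of -0.84 (limma, adjusted p = 0.0016). Jak1, the main kinase on gp130, had 1145 to 1176 in the 4 Myc-labelled libraries, against 1575 to 1686 in controls, a log2 change of -0.48 (adjusted p = 0.0022 by limma). Neither overlapped between groups, and both calls held under all 16 other settings tried. Of 12 tested kinases, STAT factors and inhibitors, 11 had a log2 change below 0, against 54.4% of all genes, with a median of -0.46, and 6 had every Myc-labelled library below every control, against 8.35%. In the same list Ptpn11, a phosphatase in cytokine signalling, averaged 3810 ± 369 in Myc-labelled soleus and 3110 ± 122 in controls (limma, adjusted p = 0.082).

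Among the 5 receptor chains none was called. Il6st, which encodes gp130 itself, averaged 2960 ± 143 in Myc-labelled soleus and 2970 ± 70.0 in controls, a log2 change of -0.01, and Lifr, the other chain that Cntfr joins, had a log2 change of -0.34 (limma, adjusted p = 0.086). Nor was any of 4 ligands called, of which the most abundant, Ctf1, encoding cardiotrophin-1, averaged 173 ± 12.9 in Myc-labelled soleus and 190 ± 26.1 in controls (limma, adjusted p = 0.73). With the replicate number as a block, the inhibitor Cish (log2 change -1.09, limma, adjusted p = 0.0027) and Ptpn11 (0.34, adjusted p = 0.024) of the kinase list also passed. In quadriceps no gene of these lists was called, and Jak2 had 1373 and 1163 in Myc-labelled libraries, against 2044 and 1641 in controls (limma, adjusted p = 0.67).

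Around Sbk3, its relative Sbk2 fell in soleus. Sbk2 had 453, 638, 885 and 499 normalised reads in Myc-labelled libraries, against 1072, 1266 and 1397 in controls, a log2 change of -1.05 (limma, adjusted p = 0.015). The groups did not overlap, but the call was lost without control 2 (adjusted p = 0.061) or control 3 (0.076) and in 1 fit over both muscles (0.091). Sbk2 lies next to Sbk3 on chromosome 7. In quadriceps Sbk2 averaged 312 ± 14.4 in Myc-labelled libraries and 865 ± 542 in controls (limma, adjusted p = 0.81), and it too was highest in control 2. The third family gene, Sbk1, averaged 1430 ± 396 in Myc-labelled soleus and 1120 ± 120 in controls and was not called (limma, adjusted p = 0.41).

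Around Gch1, none of the 6 other tested genes of tetrahydrobiopterin synthesis and recycling was called lower in soleus. Of these, 2 had a log2 change below 0, the lowest at -0.43. Qdpr, which encodes the reductase that recycles the cofactor after use, averaged 939 ± 55.4 in Myc-labelled soleus and 723 ± 67.7 in controls, a rise of 0.38 in log2 (limma, adjusted p = 0.036). That call was lost without Myc-labelled library 2, 3 or 4 or control 1 or 2 (adjusted p = 0.058 to 0.16). The next enzymes after Gch1, Pts and Spr, had log2 changes of 0.11 and -0.01 and were not called. Of the 4 tested enzymes that use the cofactor the most abundant, the neuronal nitric oxide synthase gene Nos1, averaged 464 ± 141 in Myc-labelled soleus and 536 ± 65.3 in controls (limma, adjusted p = 0.53).

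Around Aqp4, 1 of 16 genes of the dystrophin complex was called. Dtna, encoding α-dystrobrevin of that complex, had a log2 change of -0.36 (limma, adjusted p = 0.044), but 12 of 16 other settings lost the call, among them the replicate block (adjusted p = 0.064), TMM scaling (0.056) and each soleus library left out in turn but Myc-labelled library 2. Sgca, a sarcoglycan gene, had a log2 change of -0.30 (limma, adjusted p = 0.078) and passed only with the block (0.037) and without Myc-labelled libraries 3 and 4. The most abundant gene of the complex, Dag1 for dystroglycan, had a log2 change of 0.00. Of 2 other aquaporins tested, Aqp1, the water channel of capillaries, averaged 9040 ± 735 in Myc-labelled soleus and 9670 ± 1450 in controls (limma, adjusted p = 0.69).

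Around Lrrc38, none of 4 tested BK channel genes was called in soleus. Kcnma1, the pore of the channel, averaged 1270 ± 143 in Myc-labelled soleus and 1240 ± 49.7 in controls, a log2 change of 0.03 (limma, adjusted p = 0.92). Another γ subunit, Lrrc52, averaged 308 ± 160 in Myc-labelled soleus and 301 ± 106 in controls (limma, adjusted p = 0.94). In quadriceps Kcnma1 had 602 and 667 in Myc-labelled libraries, against 839 and 855 in controls (limma, adjusted p = 0.73).

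Around Wnt5b, 1 receptor rose and 1 target fell. Fzd9, a Frizzled receptor for Wnts, had 3966, 2691, 3303 and 3867 in Myc-labelled soleus, against 2210, 1634 and 1800 in controls, a log2 change of 0.87 (limma, adjusted p = 0.0012) that was called under all 16 other settings. It was the 1 gene called among 15 tested receptors. Axin2, a feedback gene that β-catenin switches on, averaged 260 ± 59.7 in Myc-labelled soleus and 391 ± 61.2 in controls, a log2 change of -0.60 (limma, adjusted p = 0.046). Its call was lost in 11 of 16 other settings, with an adjusted p of 0.051 with the replicate block and of 0.093 to 0.21 without Myc-labelled library 1, 3 or 4 or control 1 or 2. Of 7 tested Wnt ligands 6 had a log2 change below 0, with a median of -0.46 and none called.

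The most abundant of those ligands, Wnt9a, averaged 175 ± 40.0 in Myc-labelled soleus and 233 ± 33.0 in controls (limma, adjusted p = 0.23), and Wnt5a, the closest relative of Wnt5b, had a log2 change of -0.93 (limma, adjusted p = 0.091). None of 12 secretion factors and inhibitors was called, nor any of 15 genes of the polarity branch through which Wnt5 proteins act. Kremen1, which takes Wnt co-receptors off the membrane, had a log2 change of -0.17 (limma, adjusted p = 0.29), and the small GTPase gene Rac1 one of -0.02 (limma, adjusted p = 0.94).

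Around Reln, none of 14 tested genes of its pathway was called in soleus, and their median log2 change was -0.04. Vldlr, a receptor for reelin, averaged 2530 ± 265 in Myc-labelled soleus and 3080 ± 371 in controls (limma, adjusted p = 0.13). Rapgef1, an exchange factor activated downstream of the adaptor Dab1, averaged 7250 ± 902 in Myc-labelled soleus and 6500 ± 81.7 in controls (limma, adjusted p = 0.43).

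The genes whose pattern was most like each member over the 11 libraries were found by the root-mean-square difference of log2 values, each centred on its muscle's mean, among 11971 genes. For Reln they were Cdc25b (0.242) and Csf2ra (0.286), for Cntfr Peg3 (0.249) and Mdfic (0.263), and for Lrrc38 Ap3m2 (0.241) and Lyst (0.256). For Aqp4 they were Ccdc146 (0.295) and Gm14261 (0.361), for Gch1 Rem1 (0.301) and E130102H24Rik (0.339), and for Wnt5b Inpp5j (0.398) and Lzts1 (0.409). For Sbk3 they were the slow myosin light chain Myl3 (0.606) and Nlrc3 (0.642). Myl3 had log2 changes of -4.01 in quadriceps and -0.18 in soleus, and Sbk3 had -3.42 and -1.40. Within the set, Wnt5b was rank 12 of 11971 for Sbk3, Lrrc38 was rank 46 for Gch1 and 47 for Cntfr, and Reln was rank 64 for Lrrc38. Reln and Sbk3 were unlike each other (1.25). The soleus libraries that chose the members enter these distances, so members share a soleus difference by selection. Nothing is read from their closeness.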

How the data were processed

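RNA was sequenced from 7 soleus and 4 quadriceps libraries, grouped by title. Each deposited value is a normalised signal, which the authors made by dividing a gene's read count by a factor per library. STAR 2.7.8a, DESeq2 and Partek appear in the submitters' processing notes without their roles, as do the builds mm10 and mm39, so measured values carry no coordinates. The division was read from the values, where 1 read is worth 0.837 to 1.174 in soleus and 0.8311 to 1.16 in quadriceps; 90.91% to 93.47% of values under 300 reads were whole within 0.02 of a read, and depths were estimated from it.

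From there limma 3.58.1 in R 4.3.3 was fitted to log2(value + 1) in each muscle alone, with trend and robust moderation (statmod 1.5.0), over genes with at least 10 in 3 soleus or 2 quadriceps libraries, two-sided, with Benjamini-Hochberg adjustment over all genes tested. A fold change on this scale understates low genes. Fold values are ratios of means. The fit was tested on simulated data. The alternatives were 2 scalings, a pseudocount of 5, no filter, 1 fit over both muscles, a replicate block, no robust moderation, limma-voom on estimated reads, and libraries left out.

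The members and gene lists were chosen with earlier results of these data known. Named partner genes are those called, or the most abundant of a list without a call; Dag1, Sgca, Sgcd, Lifr, Ptpn11, Cish, Sbk1, Pts, Spr, Lrrc52, Wnt5a, Vldlr and single markers were named after their values were seen. Some genes of the lists are not reported by name here. No label says that replicates came from separate animals, so a p-value here reflects only the spread between samples, which may be technical. Same-numbered Myc-labelled and control soleus libraries deviated together, with correlations of 0.17 to 0.20 over 3 pairs. Other pairs ran from -0.21 to 0.16, the highest being Myc-labelled library 4 with control 3. In quadriceps same-numbered pairs gave 0.31 and the other pairs -0.31, which are mirror values with 2 libraries a group. By a limit of 0.1 for every pair the numbers were taken to pair the libraries, though nothing else says what a number marks. Calls in the report come from fits without pairing, and the replicate block is an alternative beside them. Myc-labelled library 4 has no same-numbered control. In the block fit it adds nothing to the log2 changes, which equal those without that library (Reln -1.53, Gch1 -1.87). Symbols matched GRCm38.p6 for 13115 soleus and 12359 quadriceps genes. Promoter windows are from RefSeq.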

Additional observations from a re-analysis of the deposited data

How the results depend on the processing

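The soleus log2 changes of the members, which chose them, ran from -2.02 to -0.94 over the alternatives. In quadriceps no member was called under any. Sbk3 was not tested there with libraries scaled to the same total or without either control. With the replicate block the limma adjusted p of the quadriceps members ran from 0.27 (Sbk3) to 0.99 (Cntfr). That block put 1505 of all quadriceps genes at an unadjusted p under 0.05, against 762 without it (limma). Cntfr in quadriceps turned to 0.041 (same total), 0.46 (without Myc-labelled library 1) and 0.21 (without control 1), with a lowest of -0.50, and Lrrc38 to 0.0099 (same total) and 0.16 (without control 1), with a lowest of -0.26. Partner genes called lower in soleus, 5 in the report, numbered 3 with libraries scaled to the same total, 3 under TMM scaling, 2 in 1 fit over both muscles, and 2 to 6 with a replicate left out; those called higher, 2 in the report, numbered 1 to 2 with a replicate left out and 1 without both Myc-labelled libraries 3 and 4. In quadriceps 1 partner gene, Sgcd, was called lower in the fit over both muscles (adjusted p = 0.048). With the replicate block, 1216 soleus genes were called, against 1184 without it, and of the partner genes named here it changed the calls of Dtna, Axin2, Cish, Ptpn11 and Sgca. The background moved too: soleus genes called lower, 284 in the report, were 181 (and 1079 higher, against 900) with libraries scaled to the same total, 168 in the fit over both muscles, 143 without Myc-labelled libraries 3 and 4, and 116 to 244 with a replicate left out. Quadriceps genes called, 1 in the report, were 94 in the fit over both muscles, 4 with the block and 3 to 106 with a replicate left out. The cause of these shifts was not tested. Members with fewer than about 100 normalised reads rest on few reads per library, which limits the precision of their folds.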

Other observations

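The genes on either side of each member on the chromosome, among those tested in soleus and by the GRCm38.p6 order, give 14 neighbours. Their soleus log2 changes ran from -1.05 to 0.20, and 2 fell, where 2.23% of all soleus genes did: Sbk2 beside Sbk3, whose call was lost in 3 of 16 other settings, and Enho, which encodes the peptide hormone adropin, beside Cntfr (log2 change -0.73, limma, adjusted p = 0.031). Enho had a log2 change of 0.20 in quadriceps. Among the neighbours not called, Pdpn beside Lrrc38 had -0.86 (limma, adjusted p = 0.18), Orc5 beside Reln had -0.67 (limma, adjusted p = 0.12), and Adipor2 and Fbxl14 on either side of Wnt5b had -0.07 and 0.20.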
